A study of Oryza sativa with 20 samples.

Results

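Whole rice pistils collected 15 to 25 min after pollination, when pollen tubes grow, were compared with ovaries collected 5 min after pollination. The members were the 6 arrays whose titles give these samples, 3 of each kind, of 20 Affymetrix rice arrays in all. The pistil samples held stigma and ovary together, and the other samples were labelled as ovary. Per the labels, pollen grains were collected with the tissue in both groups. The other arrays were stigma 5 min after pollination (n = 2), unpollinated stigma (n = 3), unpollinated ovary (n = 3), and later whole pistils from 40 to 50 min (n = 3) and from 5 to 7 h (n = 3). All plants were Oryza sativa grown in paddy fields. The sources used here do not give the cultivar or how many flowers or plants went into a sample. The replicates are labelled biological, with no word on separate plants or days, and the p-values therefore reflect the spread among these samples, which may be technical. Tissue and time differ together between the groups, so an effect of the stigma in the whole pistil and an effect of the added 10 to 20 min cannot be told apart from these 6 arrays alone.

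A grass stigma is a feathery, dry surface on which pollen takes up water, germinates and sends out a tube. The tube grows between stigma cells, enters the ovary and passes along its wall to the ovule, which it enters at the micropyle. The growing tube takes up sugars and water, and wall-loosening proteins, calcium and hormones take part in its passage through the pistil. In a bulk sample, more cells of a type and more RNA per cell cannot be told apart.

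All values are intensities relative to the 75th percentile of their own array, and differences are given on the log2 scale as pistil minus ovary. A single array stood apart: on genes of the stigma, ovary 5 min replicate 2 lay nearer to the pistils than the other two ovaries did, so results that rest on it are also given without it. Across 35470 tested probe sets no difference was called at an adjusted p under 0.05 (limma over all 20 arrays, 0% called). At an unadjusted p under 0.05, 1006 probe sets (2.84%) were higher in the pistil and 604 (1.7%) were lower. Together these are 4.54% of those tested. The lowest adjusted p was 0.118, held by 2 probe sets, those of Cht6, a chitinase gene, and LOC4325724. The typical difference was small, with a median size of 0.14, and 93.4% of probe sets lay within 0.5 of 0. The median 95% interval reached 0.48 to either side of its estimate. For 30731 probe sets (86.6%) the whole interval lay within a 2-fold difference, while 241 were estimated at least 2-fold higher and 124 at least 2-fold lower.

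The same pistil arrays stood much further from stigma and from unpollinated tissue. Against stigma 5 min, 4163 probe sets were called higher in the pistil (11.7%) and 5700 lower (16.1%), with a median difference of 0.47 in size. Against unpollinated stigma, 4170 were called higher (11.8%) and 7500 lower (21.1%), together 32.9%. Against the unpollinated ovary, 3070 were called higher (8.66%) and 2507 lower (7.07%). Across all tested probe sets the 9 pairs of a pistil and an ovary 5 min array correlated at r = 0.9596 to 0.9793. Pairs of pistil arrays correlated at 0.9739 to 0.982, and pairs of ovary 5 min arrays at 0.9621 to 0.9766. Pistil and stigma 5 min arrays correlated at 0.8749 to 0.8873. Of 10 carpel and ovule markers, none differed between pistil and ovary at an unadjusted p under 0.05, whereas 6 were called lower and 1 higher in stigma 5 min than in ovary 5 min (all genes: 20.4% lower, 20.8% higher). Their summed intensity was 85.4 to 101 in pistils, 64.1 to 66.4 in stigma 5 min and 90.4 to 102 in ovary 5 min, but at 86.6 to 103 in unpollinated stigma and 95.9 to 103 in unpollinated ovary the sum does not separate the unpollinated tissues.

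The stigma within the whole pistil was followed with probe sets that no post-pollination array had chosen. In the unpollinated tissues, 246 probe sets were called and at least 8-fold higher in stigma than in ovary, and 187 were at least 8-fold lower. Of the 246 stigma-side probe sets, 232 (94.3%) had a higher mean in the pistil than in ovary 5 min, with a median difference of 0.73 (middle 50% from 0.49 to 1.04). An unadjusted p under 0.05 was met by 131 of them, all higher. With 1 pistil or ovary array left out this count ranged from 84 (without ovary replicate 1) to 151 (without ovary replicate 2), and without pistil replicate 1 there were also 2 lower. On 123 the 3 pistil arrays lay above all 3 ovary arrays. Over all tested probe sets, 5.9% had arrays that lay apart in this direction. The pistil mean lay between those of ovary 5 min and stigma 5 min for 229 of the 246. On the linear scale it lay 10.7% of the way from ovary 5 min to stigma 5 min (median; middle 50% from 7.26% to 15.0%). Since the 246 were chosen by a difference between other arrays, these counts are not fixed by the choice, but both comparisons share 1 estimate of spread per probe set. The 2 stigma 5 min arrays, which set the far end of that scale, differed: on the scale of the unpollinated tissues they lay at 107% and 62.7%.

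On the ovary-side probe sets the difference was smaller. Of the 187, 126 (67.4%) had a lower mean in the pistil, with a median difference of -0.10 (middle 50% from -0.27 to 0.06). An unadjusted p under 0.05 was met by 11 lower and 1 higher, but by only 2 lower without ovary replicate 2 and 3 lower without pistil replicate 1. On 38 the pistil arrays lay below all ovary arrays (6.32% of all tested probe sets did). Their median position was 7.46% of the way from ovary 5 min to stigma 5 min, with a middle 50% from -4.86% to 19.5%.

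Array by array, the stigma-side median lay 13.5%, 16.6% and 12% of the way from unpollinated ovary to unpollinated stigma in the 3 pistil samples. In the 3 ovary 5 min samples it lay at 3.39%, 9.75% and 3.32%. All pistils lay above all ovaries, and ovary replicate 2 stood apart from the other two ovaries, closer to the pistils. The means were 14% ± 2.36 in pistils and 5.49% ± 3.69 in ovaries (SD, n = 3 each), and a two-sided exact permutation test gave p = 0.1, the smallest that 3 against 3 arrays allow. Without ovary replicate 2 the ovary mean was 3.36% and the exact p was 0.2, again the smallest possible. Later whole pistils lay at 11.4%, 13% and 12.2% at 40 to 50 min and at 8.23%, 8.32% and 7.52% at 5 to 7 h. On the ovary-side probe sets the pistils lay at 28.3%, 25.1% and 25.7% and the ovaries at 19.2%, 22.8% and 18.7%, also without overlap (exact p = 0.1). Later whole pistils, which hold stigma too, lay below every ovary 5 min array on these probe sets, at 13.4%, 9.02% and 15.4% at 40 to 50 min and 2.86%, -7.48% and -2.57% at 5 to 7 h.

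**Figure D1:**
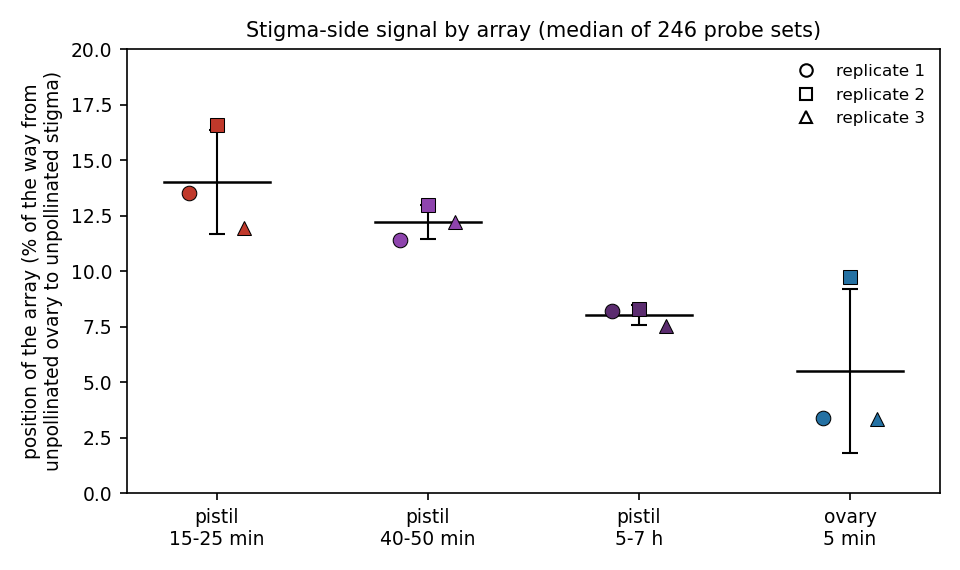
Position of each array between unpollinated ovary (0%) and unpollinated stigma (100%), as the median over 246 probe sets chosen by the difference between the unpollinated tissues. Points are arrays (symbol by replicate), lines are group means and bars are SD (n = 3); the 3 pistil 15-25 min arrays lie between 12% and 16.6%, all above the ovary 5 min arrays, of which replicate 2 is highest at 9.75%.

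The difference between pistil and ovary grew with the stigma preference of a gene before pollination. Among 103 probe sets at least 16-fold higher in unpollinated stigma (4 on the log2 scale), the median difference was 1.03 and 97.1% were higher in the pistil. Among 144 between 3 and 4, the median was 0.63. Among 482 between 2 and 3, it was 0.34. For the 19658 probe sets between 0 and 1 the median was 0.02, with 53.4% higher, and on the ovary side it stayed between -0.13 and -0.04. Without ovary replicate 2 the medians of the 3 highest classes were 1.33, 0.73 and 0.37.

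**Figure D2:**
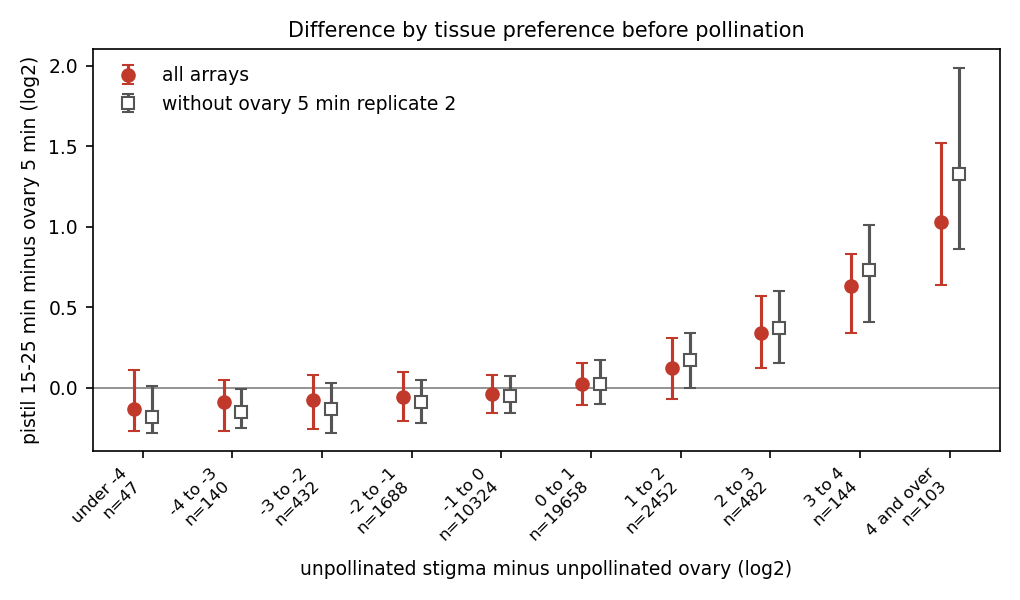
Pistil 15-25 min minus ovary 5 min (log2, vertical) for probe sets grouped by unpollinated stigma minus unpollinated ovary (log2, horizontal), as medians with the middle 50% as bars, with all arrays and without ovary 5 min replicate 2. The median is near 0 up to a tissue difference of 1 and reaches 1.03 for the 103 probe sets at 4 and over.

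Of the 1006 probe sets that were higher in the pistil at an unadjusted p under 0.05, 491 (48.8%) were called higher in unpollinated stigma than in unpollinated ovary, where 19.7% of all tested probe sets were (32.8% were called in either direction). These 491 are 7.02% of the 6990 stigma-higher probe sets. Another 38 (3.78%) were called lower in unpollinated stigma and 477 (47.4%) were called in neither direction. Of the 604 that were lower in the pistil, 215 (35.6%) were called lower in unpollinated stigma, against 13.1% of all tested, and these are 4.63% of the 4643 stigma-lower probe sets. A further 52 (8.61%) were called higher in unpollinated stigma, and 337 were not called.

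The number of calls depended most on ovary replicate 2 among the arrays left out in turn. Without it, 29 probe sets were called higher in the pistil and 0 lower (0.0818% of those tested). Of the 29, 27 were called higher in unpollinated stigma (19.7% of all tested probe sets were). The 246 stigma-side probe sets, of 35470 tested, held 26 of the 29. Ovary replicate 2 was singled out for its values on stigma-side probe sets. Leaving it out by itself widens the gap there, so these counts are no separate support for a stigma share. The differences of the 29 ran from 1.21 to 4.94. Only 3 of them had a gene symbol: Cht6, PSK4 and CYP71P1, which encodes the enzyme that makes serotonin from tryptamine. The probe set with the widest gap, LOC4348112, which was picked out after its values were seen, had intensities of 9.26, 12.1 and 7.63 in pistils, 83.3 and 69.1 in stigma 5 min, and 0.487, 10.8 and 0.197 in ovary 5 min. Ovary replicate 2 was as high as the pistils here, and the other two ovaries were far below them. CYP71P1 showed the same order, with 4.72, 4.60 and 3.28 in pistils, 37.3 and 19.5 in stigma 5 min, and 1.51, 4.06 and 0.985 in ovary 5 min. What set ovary replicate 2 apart was not tested. At an unadjusted p under 0.05, its removal left 668 probe sets higher in the pistil and 270 lower. With arrays weighted by quality in limma, 16 were called higher (0.0451%) and 3 lower (0.00846%).

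With no gene called, genes are named below by a rule set after the values were seen: a symbol, pistil and ovary arrays that do not overlap, and an unadjusted p under 0.05. This took 106 genes of 2274 with a symbol, 76 higher in the pistil and 30 lower. Of the 76, 40 were called higher in unpollinated stigma (27.7% of all genes with a symbol were), and of the 30, 16 were called lower there (17.7% of all genes with a symbol). Members of gene lists are named beside them as values. None of these differences passed the adjusted test with all arrays.

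Genes of stigma tissue were among the 40. Rcb4, a chitinase gene, had intensities of 13, 16.9 and 9.33 in pistils, 58.9 and 37.8 in stigma 5 min, and 4.21, 6.57 and 3.69 in ovary 5 min. All pistils lay above all ovaries and below both stigmas. The pistil minus ovary difference was 1.44 ± 0.43 (SE; 95% interval 0.54 to 2.34; limma adjusted p = 0.536). ABCG45, an ABC transporter of the pleiotropic drug resistance family, had 3.19, 3.29 and 2.58 in pistils, 17 and 12.2 in stigma 5 min, and 1.02, 2.13 and 1.26 in ovary 5 min. Its difference was 1.10 ± 0.30, its position 11.8% of the way to stigma 5 min, and unpollinated stigma exceeded unpollinated ovary by 5.78.

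IAA12, an Aux/IAA repressor of auxin responses, had 2.28, 1.89 and 2.00 in pistils, 8.66 and 5.20 in stigma 5 min, and 1.0, 0.999 and 0.719 in ovary 5 min. The pistils were about 2.29-fold above the ovaries (difference 1.19 ± 0.40). EXP6, an alpha-expansin that loosens cell walls, had 2.90, 2.82 and 2.42 in pistils, 19.3 and 9.29 in stigma 5 min, and 1.70, 2.14 and 1.73 in ovary 5 min, a difference of 0.55 ± 0.20. MADS34, a SEPALLATA-like MADS-box factor, differed by 0.88 ± 0.26 and lay at 14% of the way to stigma 5 min. The proline transporter gene OsproT differed by 0.96 ± 0.33 at a position of 15.7%. Further members of this class were CIPK24, a CBL-interacting kinase (0.91), KCS20, a fatty acid elongase of the wax pathway (0.90), GH3-8, which conjugates auxin to amino acids (0.82), CIN1, a cell wall invertase (0.79), and OsrbohB, an NADPH oxidase (0.59). These last 5 were also higher in stigma 5 min than in ovary 5 min, by 2.17 to 3.18.

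Other genes higher in the pistil differed by less than 1 between the unpollinated tissues but were high in the pollinated stigma. Cht6 had 1.31, 1.16 and 1.17 in pistils, 4.66 and 3.13 in stigma 5 min, and 0.463, 0.551 and 0.364 in ovary 5 min. The pistil arrays were close to each other and clear of the ovaries. Its difference was 1.42 ± 0.23 with all arrays (limma adjusted p = 0.118) and 1.56 without ovary replicate 2 (limma adjusted p = 0.0189). PSK4 encodes a precursor of phytosulfokine, a small growth peptide. It had 1.31, 1.28 and 1.16 in pistils, 6.27 and 7.51 in stigma 5 min, and 0.702, 0.792 and 0.418 in ovary 5 min. Its difference was 1.02 ± 0.21 (limma adjusted p = 0.27), and 1.21 without ovary replicate 2 (limma adjusted p = 0.0475). In unpollinated stigma and ovary it averaged 0.310 and 0.363.

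Transporters of sugar and water were also higher in the pistil at an unadjusted p under 0.05. OsSWEET1b, a sugar exporter of the SWEET family, had 1.0, 1.22 and 0.793 in pistils, 3.04 and 3.10 in stigma 5 min, and 0.525, 0.388 and 0.281 in ovary 5 min, a difference of 1.36 ± 0.37. OsSWEET14, listed as Os11N3 in the naming table and already higher in unpollinated stigma than in unpollinated ovary by 1.79, had 4.41, 4.53 and 3.90 in pistils, 9.47 and 7.68 in stigma 5 min, and 2.39, 2.16 and 1.74 in ovary 5 min. It differed by 1.04 ± 0.32, and its second probe set by 1.36. OsPIP2;5, a plasma membrane aquaporin, had 3.17, 5.54 and 2.5 in pistils, 7.28 and 5.09 in stigma 5 min, and 1.65, 1.55 and 1.06 in ovary 5 min. Pistil replicate 2 reached the range of the stigmas here, and the other pistils lay below both stigmas. The pistil mean was 48.6% of the way between the 5 min means. MST3, a monosaccharide importer, differed by 1.09 ± 0.46 at a position of 38.4%. Of 37 sugar and water transport genes, 5 were higher and 1 lower at an unadjusted p under 0.05 (all genes: 3.95% higher, 2.02% lower). Among the 2274 genes with a symbol, 112 were higher and 38 lower. The median of the transport list was 0.06. OsSWEET5 had the lowest estimate, -1.33, and was 2.61 higher in stigma 5 min than in ovary 5 min.

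**Figure D3:**
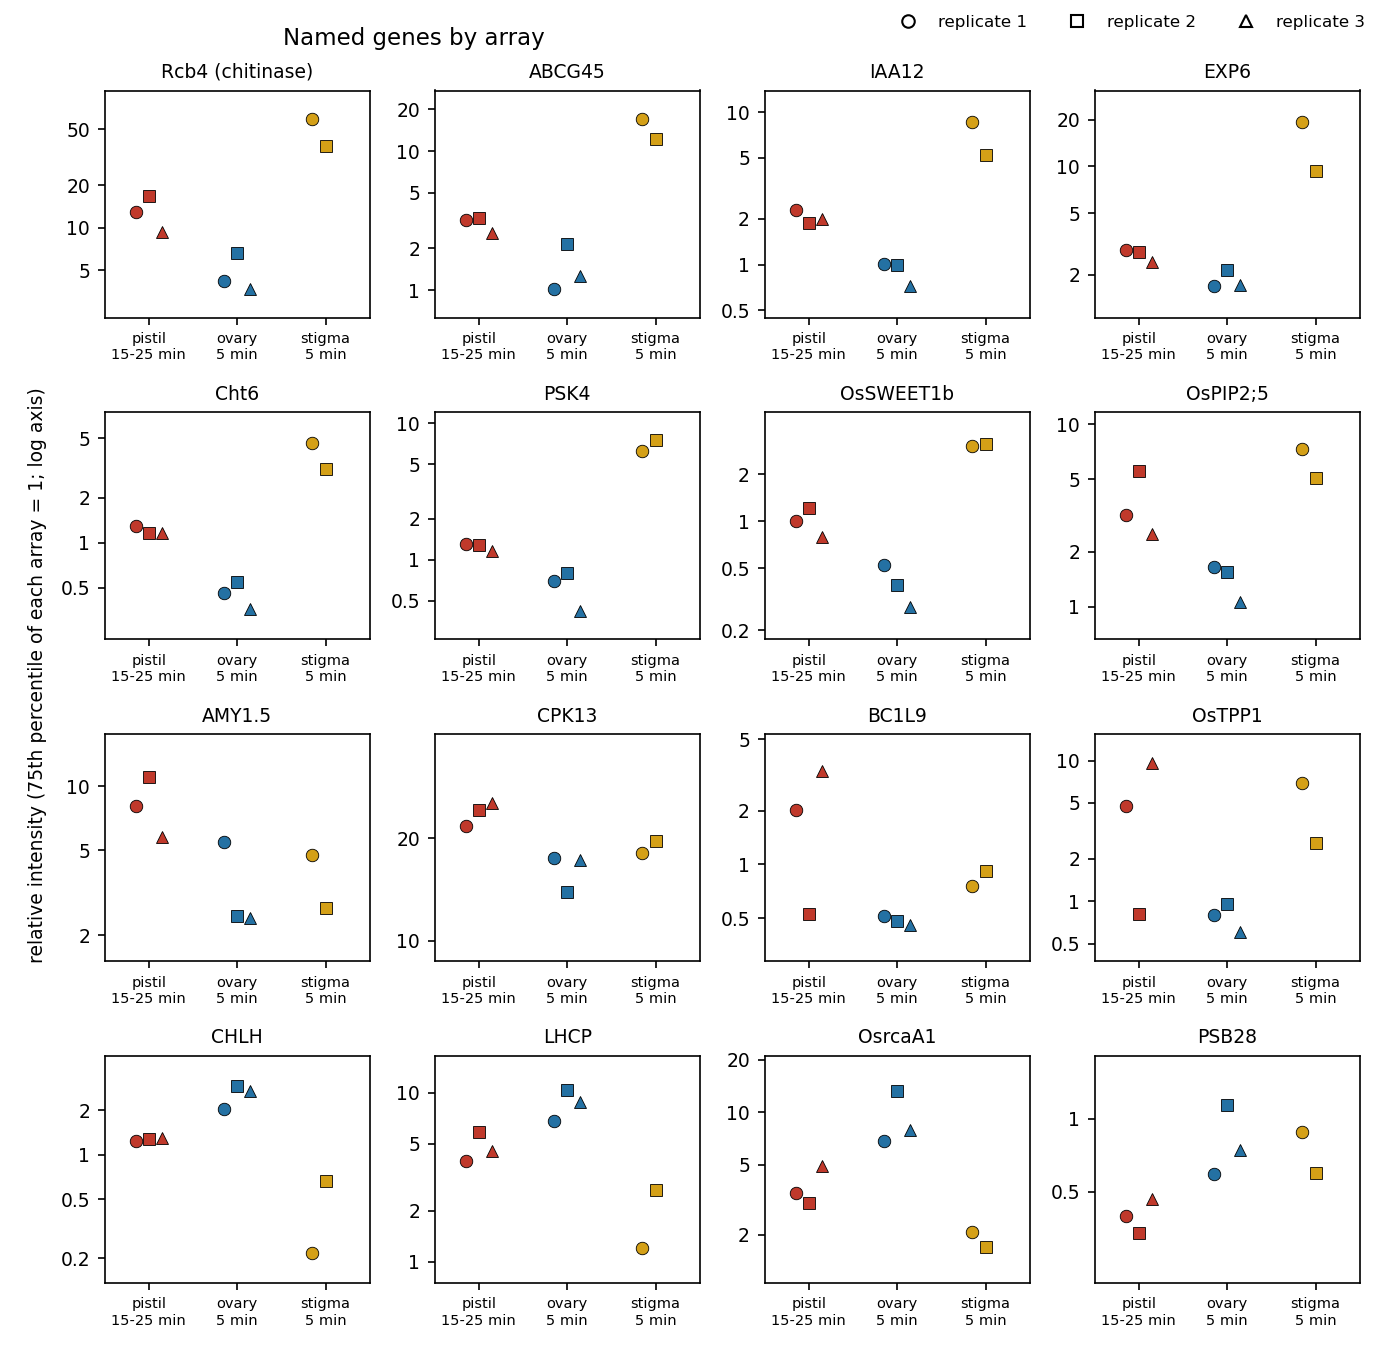
Relative intensity (log axis) of 16 named genes in each pistil 15-25 min, ovary 5 min and stigma 5 min array, with symbols by replicate. In the first row the pistils lie between ovaries and stigmas, nearer to the ovaries; AMY1.5 and CPK13 lie above both tissues, pistil replicate 2 lies near the ovaries for BC1L9 and OsTPP1, and the photosynthesis genes of the last row lie below the ovaries.

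A mixture of stigma and ovary at their 5 min levels would lie between both, so levels outside that range were listed apart. No probe set was called beyond both tissues in either direction (limma, 0% called). With both unadjusted p under 0.05, 81 were above both (0.228%) and 131 were below both (0.369%). Above or below all 4 separated tissue groups were 58 (0.164%) and 30 (0.0846%). Arrays lay above all 5 arrays of both 5 min tissues for 262 probe sets (0.739%) and below all of them for 540 (1.52%).

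Of the 106 named genes, 6 lay above both tissues on every array. AMY1.5, an alpha-amylase gene also listed as amy2A, had 8.04, 11 and 5.78 in pistils, 4.77 and 2.67 in stigma 5 min, and 5.48, 2.46 and 2.42 in ovary 5 min. The lowest pistil was only just above ovary replicate 1. Its pistil minus ovary difference was 1.32 ± 0.43 and its pistil minus stigma difference was 1.16, neither called. Against the unpollinated ovary the pistil was 5.32 higher (limma adjusted p = 7.9e-07), and later pistils stayed at 6.92 to 9.19 at 40 to 50 min and 6.72 to 8.92 at 5 to 7 h. CPK13, a calcium-dependent protein kinase, had 21.8, 24.2 and 25.4 in pistils, 18.1 and 19.6 in stigma 5 min, and 17.5, 13.9 and 17.3 in ovary 5 min. Its difference from the ovary was 0.55 ± 0.22, and its second probe set gave 0.45. The remaining 4 were osysl16, a metal transporter gene (0.56), OsSPX3 of phosphate sensing (0.47), ARF9, an auxin response factor (0.40), and AGPR of arginine synthesis (0.35). Stigma 5 min was lower than ovary 5 min by 0.59 for ARF9, while the pistil was higher than both, and AGPR had the same order of means with a difference between the tissues of -0.23.

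Some of the largest estimates rested on 2 of the 3 pistils. OsTPP1, a trehalose-6-phosphate phosphatase, had 4.78, 0.816 and 9.64 in pistils, 6.92 and 2.60 in stigma 5 min, and 0.797, 0.962 and 0.602 in ovary 5 min. Pistil replicate 2 lay among the ovaries and the other two pistils were far above them, so the estimate of 2.12 ± 0.64 had a wide interval (0.77 to 3.46). BC1L9, a COBRA-like gene of cell wall assembly, had 2.00, 0.525 and 3.35 in pistils, 0.753 and 0.916 in stigma 5 min, and 0.512, 0.481 and 0.461 in ovary 5 min. It differed by 1.65 ± 0.45, with pistil replicate 2 just above the ovaries. Without pistil replicate 2, 10 probe sets of 35470 tested were called higher in the pistil and 7 of them beyond both 5 min tissues. LOC4332204 is counted more than once among the 10. On each of the 10, pistil replicate 2 was the lowest pistil. Leaving it out by itself widens the gap there, so these calls are no separate support for a difference. Of the 10, those with a symbol were OsTPP1 (3.13), BC1L9 (2.42), Os4CL5, a 4-coumarate:CoA ligase of lignin precursors (1.40), and CDPK1, a calcium-dependent kinase (1.2). All of these but OsTPP1 were among the 7. CDPK1 had 2.43, 1.58 and 3.06 in pistils, 1.73 and 1.87 in stigma 5 min, and 1.42, 1.0 and 1.18 in ovary 5 min, and kept the pistils apart from the ovaries on all 3 arrays. Pistil replicate 2 was the one with the highest stigma-side position, 16.6%.

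The clearest group on the lower side was photosynthesis. Of 20 genes, 11 were lower in the pistil at an unadjusted p under 0.05 and 0 higher, against 2.02% and 3.95% of all 16263 genes. Of the 2274 genes with a symbol, 38 were lower and 112 higher. The photosynthesis estimate was below 0 for 19 of 20, and the median was -0.52, against 0.01 over all genes. On 13 of the 20 the pistil arrays lay below all ovary arrays (7.89% of all genes did). Without ovary replicate 2 the count was 4 of 20 and the median -0.40, without pistil replicate 2 it was 7 of 20 and -0.55, and without pistil replicate 1 it was 6 of 20 and -0.48. None was called in these fits. Across arrays, the median of the list relative to the ovary 5 min mean was -0.60, -0.55 and -0.50 in pistils, -1.03 and -0.98 in stigma 5 min, and -0.21, 0.16 and -0.04 in ovary 5 min. The 3 pistils lay below every ovary and above both stigmas. Ovary replicate 2 was the highest of its group here.

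OsrcaA1, Rubisco activase, had 3.46, 3.02 and 4.94 in pistils, 2.08 and 1.70 in stigma 5 min, and 6.87, 13.1 and 7.95 in ovary 5 min. Its difference was -1.27 ± 0.42, and its 3 further probe sets gave -1.49, -1.32 and -0.91. CHLH, the large subunit of magnesium chelatase in chlorophyll synthesis, had 1.24, 1.28 and 1.3 in pistils, 0.219 and 0.662 in stigma 5 min, and 2.03, 2.91 and 2.71 in ovary 5 min. The pistils were tightly grouped below the ovaries (-0.99 ± 0.30), though a second probe set gave -0.43. LHCP, a chlorophyll a/b-binding protein, had 3.97, 5.87 and 4.52 in pistils, 1.2 and 2.68 in stigma 5 min, and 6.83, 10.4 and 8.86 in ovary 5 min, a difference of -0.86 ± 0.32. ALDP, the chloroplast aldolase gene, is not in this list and had 3.55, 3.07 and 4.47 in pistils, 0.952 and 1.16 in stigma 5 min, and 5.93, 8.30 and 8.02 in ovary 5 min (-1.01 ± 0.31).

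As a description of genes picked for their low pistil values, OsrcaA1 was 74.2% of the way from ovary 5 min to stigma 5 min, CHLH 60.6%, ALDP 58.5% and LHCP 57.8%. Other photosynthesis genes were below both tissues. PSB28, a photosystem II assembly factor, had 0.398, 0.337 and 0.467 in pistils, 0.884 and 0.595 in stigma 5 min, and 0.592, 1.13 and 0.745 in ovary 5 min. The pistils were below every array of both tissues (-1.0 ± 0.26 against the ovary). CAO, which makes chlorophyll b, had 1.80, 1.84 and 1.83 in pistils, 3.04 and 2.40 in stigma 5 min, and 2.26, 2.94 and 3.03 in ovary 5 min (-0.58 ± 0.23). ISP, the Rieske iron-sulphur protein of the cytochrome b6f complex, lay below both tissues in the same way (-0.64 ± 0.22). Later pistils were also low: OsrcaA1 had 2.39 to 3.98 at 40 to 50 min and 0.765 to 0.941 at 5 to 7 h, and CHLH had 1.18 to 1.76 and 0.504 to 0.756.

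In all, 9 of the named genes lay below both tissues on every array. Besides PSB28, CAO and ISP they included MSRB1, a methionine sulphoxide reductase (-0.75), BGLU19, a beta-glucosidase (-0.79), CRSH1, a calcium-activated alarmone synthase of plastids (-0.47), OsPP2C01, a protein phosphatase (-0.48), and OSPIN10a, an auxin efflux carrier (-0.36). OSPIN10a had 4.25, 4.37 and 4.32 in pistils, 10.9 and 6.56 in stigma 5 min, and 5.33, 5.59 and 5.70 in ovary 5 min. It is a stigma-higher gene that was nevertheless lower in the whole pistil than in the ovary. GER5, a germin-like protein gene, was lower than the ovary only (-1.0 ± 0.29), as were ADI1, listed as a ferredoxin (-1.12 ± 0.45), and LFNR1, a ferredoxin-NADP reductase (-0.77 ± 0.28).

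Defence and wall genes had more members on the higher side. Of 28 defence proteins, 5 were higher at an unadjusted p under 0.05 and 0 lower, with a median of 0.30, against 3.95% and 2.02% of all genes and a median of 0.01. Of the 2274 genes with a symbol, from which every list is drawn, 112 were higher and 38 lower, with a median of 0.04. Without pistil replicate 1, 3 defence proteins were higher. Pistil arrays lay above all ovary arrays for 8 of the 28 (8.36% of all genes, 234 of the 2274 with a symbol). The 5 were Rcb4, Cht6, CH6 (0.82), and NH3 and NH1, relatives of the salicylate receptor NPR1 of Arabidopsis (0.73 and 0.61). Of 43 wall enzymes, 5 were higher and 0 lower, with a median of 0.22 (2 higher without ovary replicate 1, ovary replicate 2 or pistil replicate 3, and 3 without pistil replicate 1). They were BC1L9, GLU12, an endo-beta-glucanase (0.90), BC1L6 (0.88), CSLC7, a cellulose synthase-like protein (0.73), and IRX14 of xylan synthesis (0.34). Of 17 wax, cuticle and lipid transfer genes 4 were higher: ABCG45, KCS20, ABCG36 (0.69) and ABCG44 (0.68). That count was 2 without ovary replicate 2, pistil replicate 1 or pistil replicate 3, and 6 without ovary replicate 3. The ABCG genes were matched to this list by symbol, and ABCG45 is the drug resistance type transporter named above. The list is therefore broader than its name. Expansins gave 2 higher of 21 (1 to 4 with an array left out). Sucrose and starch genes gave 5 higher and 1 lower of 45 (3 higher without pistil replicate 3).

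Hormone and signalling lists are read against 3.95% of all genes higher and 2.02% lower. All list members have a symbol, and of the 2274 genes with a symbol 112 were higher and 38 lower, with a median of 0.04. Auxin genes gave 6 higher and 1 lower of 55 (2 higher without pistil replicate 1, 3 without pistil replicate 2 or ovary replicate 2), with a median of 0.15. The 6 were IAA12, IAA31 (0.88), GH3-8, ARF15 (0.59), IAA15 (0.59) and ARF9, and 5 of them were higher in stigma 5 min than in ovary 5 min by 1.40 to 3.25. Abscisic acid genes gave 8 higher and 1 lower of 91, and calcium signalling 7 higher and 0 lower of 87 (both 4 higher without ovary replicate 2, and calcium signalling also 4 without pistil replicate 3). BZIP50, a stress-response bZIP factor, was matched to the abscisic acid list by symbol, and a part in that pathway was not tested. It had 2.98, 2.92 and 2.56 in pistils, 4.04 and 2.85 in stigma 5 min, and 1.81, 1.62 and 1.79 in ovary 5 min, a difference of 0.70 ± 0.19. WRKY, NAC and MYB factors had a median of 0.27 with 2 higher of 21. Without ovary replicate 2 the median was 0.09 with 0 higher, and without pistil replicate 2 it was 0.42 with 3 higher. Without pistil replicate 1 or 3, 0 were higher, and without ovary replicate 3, 4 were. Jasmonate genes gave 1 higher of 34, LOX1.1, a lipoxygenase with 0.844, 1.37 and 0.605 in pistils, 0.166 and 0.378 in stigma 5 min, and 0.670, 0.294 and 0.474 in ovary 5 min. Its lowest pistil lay below the highest ovary. LOX1.1 was matched to the list by symbol, and a part in jasmonate synthesis was not tested.

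**Figure D4:**
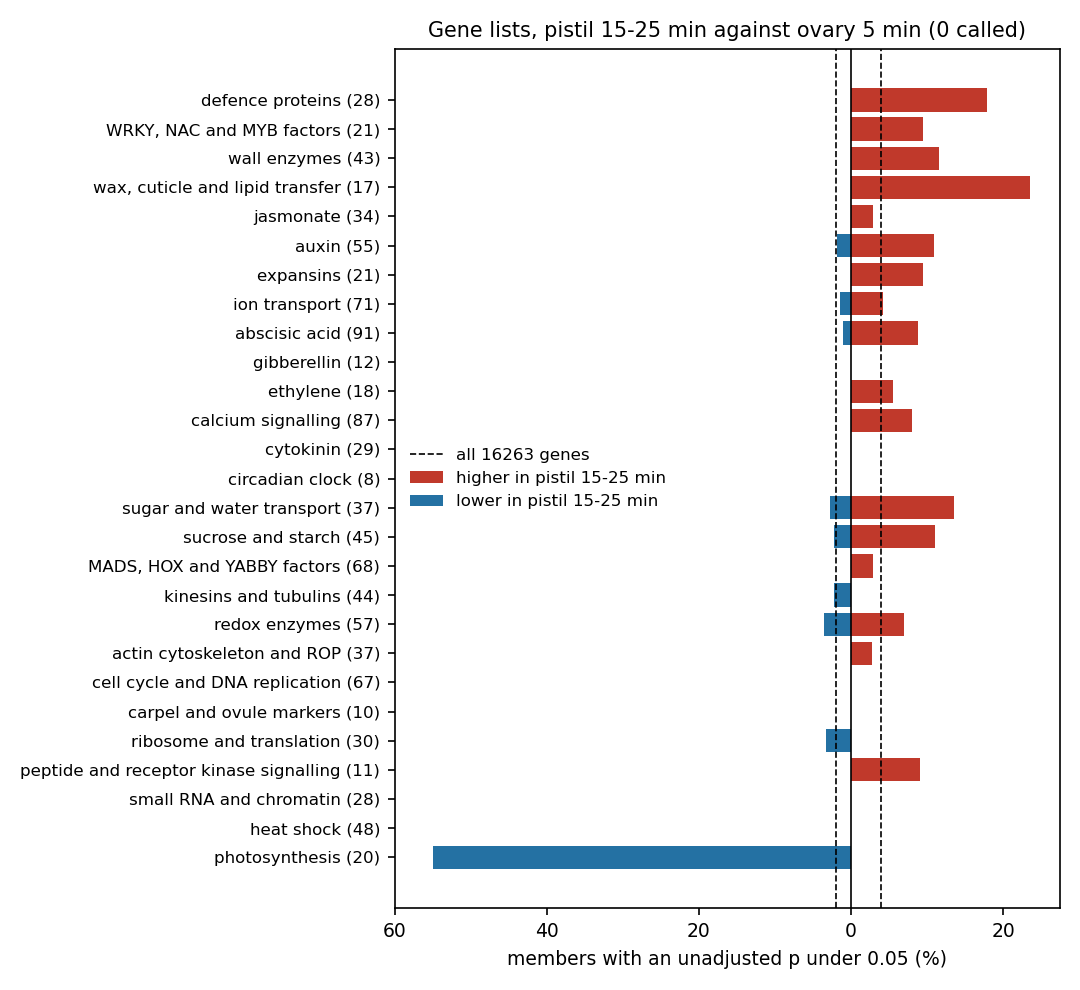
Share of each gene list (members tested in brackets, lists of 8 or more) with an unadjusted p under 0.05, higher in pistil 15-25 min to the right and lower to the left, ordered by median difference. Dashed lines give all 16263 genes (3.95% higher, 2.02% lower), while of the 2274 genes with a symbol 112 were higher and 38 lower. Photosynthesis has 11 of 20 members lower and defence proteins have 5 of 28 higher.

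Lists tied to dividing cells had few such members. Cell cycle and DNA replication genes gave 0 of 67 in either direction with a median of -0.04, which was 0.01 without pistil replicate 3. Of the 67, 37 were called lower in stigma 5 min than in ovary 5 min, against 20.4% of all genes. Over all probe sets the share was 14.3%, and 35% were called in either direction. Kinesins and tubulins gave 0 higher and 1 lower of 44, and ribosome and translation genes 0 and 1 of 30. Heat shock genes gave 0 of 48 with a median of -0.16, which turned to 0.03 without pistil replicate 2, where 28 of 48 estimates were above 0 and 2 were higher at an unadjusted p under 0.05. Cytokinin, gibberellin, circadian clock, and small RNA and chromatin lists also gave 0 in either direction, with medians of 0.09, 0.10, 0.08 and -0.06. The cytokinin count depended on the arrays: 3 of 29 were higher without ovary replicate 1 (median 0.19) and 2 without ovary replicate 3 (median 0.24). Without ovary replicate 3, 1 gibberellin gene was higher, and without pistil replicate 2, 1 small RNA and chromatin gene was.

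Pollen markers were followed through EXPB9 and EXPB10, group-1 pollen allergen beta-expansins, the 2 pollen markers tested under a symbol. Their summed intensity was 2.60 to 11.1 in pistils, 63.5 to 67.9 in stigma 5 min, 8.40 to 19.8 in ovary 5 min, 2.80 to 4.93 in unpollinated stigma and 0.264 to 0.671 in unpollinated ovary. The unpollinated stigma thus held signal of these genes in the range of the pistils. EXPB9 had 10.9, 2.41 and 4.25 in pistils, 66.0 and 62.5 in stigma 5 min, and 9.13, 19.5 and 8.12 in ovary 5 min. The groups overlapped, the highest value was again ovary replicate 2, and the estimate of -1.23 ± 0.72 had an interval that included 0 (-2.75 to 0.28). Among calcium-dependent kinases that were higher in stigma 5 min by 2.70 to 2.94, CPK29, CPK2 and CPK22 had pistil minus ovary estimates below 0 (-1.11, -1.0 and -0.95), none with an unadjusted p under 0.05. These kinases are not on the pollen marker list. They belong to the calcium signalling list, where 61 of 87 estimates were above 0 and 26 below. Stamen and lodicule markers summed to 40.5 to 42.7 in pistils and 35.7 to 40.4 in ovaries over 4 genes. These sums were higher in stigma, at 73.1 to 101 in stigma 5 min and 125 to 135 in unpollinated stigma. In unpollinated ovary they ran from 34.3 to 68.9. Tapetum and anther wall markers summed to 8.37 to 9.16 in pistils and 9.41 to 9.81 in ovaries over 6. API5 alone gave 4.68 to 5.19 of this in pistils and 5.04 to 5.42 in ovaries. BHLH141, MIL2 and PTC1 reached at most 0.209 in pistils, near the floor. Seed storage markers summed to 5.79 to 7.24 in pistils and 5.06 to 6.17 in ovaries over 6. NSHB1 and NSHB2 in that list are haemoglobin genes matched by symbol, not storage proteins. None of these markers lay at the floor on every array. Their part in the differences above was not tested.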

How the data were processed

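Relative intensities were used as deposited by the authors, for 57381 probe sets on 20 arrays. The submitters' processing notes name GCOS 1.3, and per the labels' protocols 500 ng of total RNA was labelled for each array. The deposited intensity values are linear with the 75th percentile of every array at 1, and no source used here names the program that set this. All columns were matched to samples by title.

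From these values the following was computed. The 187 control probe sets were dropped, and of the rest those exceeding the median of the array in 2 or more arrays stayed in (35470). A floor of 0.128, the 20th percentile over the table, was set before log2. With limma 3.58.1 (R 4.3.3), means were fitted for 7 groups (residual degrees of freedom 13, moderated variances with a trend, Benjamini-Hochberg within a comparison, called at an adjusted p under 0.05). Of the pistil and ovary 5 min arrays, 0.519% to 2.76% of probe sets lay at the floor. The number of arrays limits the precision. The fit was tested on simulated data. Exact permutation tests used SciPy 1.17.1.

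Genes were named through the platform annotation's gene IDs and RefSeq symbols or synonyms: 19579 tested probe sets had 1 gene, 82 several and 15809 none, and 2274 of 16263 genes had a symbol. Where several tested probe sets shared a gene, the brightest on average stood for it. The rule for named genes took called genes with arrays that do not overlap. It gave 0 genes, so a condition of an unadjusted p under 0.05 was used in its place, chosen after seeing the data, and each list's member with the lowest p is given as values. Lists are symbol patterns, and the members and lists were chosen with earlier results of these data known. The replicate numbers did not pair the groups: deviations of same-numbered pistil and ovary arrays correlated at -0.097, 0.109 and -0.063. Alternatives were other scalings, filters, floors and variance models, a replicate block, a fit of only the groups compared, and each array left out in turn.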

Additional observations from a re-analysis of the deposited data

How the results depend on the processing

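The count of 0 called probe sets for pistil against ovary 5 min became 1 under quantile normalization and 19 with array weights (16 higher, 3 lower). It ranged from 0 to 29 when 1 array was left out: 29 without ovary 5 min replicate 2, 10 without pistil replicate 2, 1 without unpollinated ovary replicate 2 and 0 otherwise. It was 0 under median centring, scaling on bright probe sets, both other filters, both other floors, without cross-hybridising probe sets, without a variance trend, in a fit of only the groups compared and with a 2-fold minimum. The replicate block also gave 0 calls, for each count of calls. Counts beyond both 5 min tissues and beyond all 4 tissue groups ranged from 0 to 7, with 7 without pistil replicate 2. Calls with the tissue direction of the unpollinated arrays numbered 0 with all arrays, 12 with array weights (10 higher, 2 lower) and 0 to 27 with 1 array left out. The stigma-side position of 10.7% ranged from 8.20% to 14.8%, highest without stigma 5 min replicate 1, and the ovary-side position of 7.46% from 6.26% to 11.8%, highest without ovary 5 min replicate 2. None of these changed direction. Medians of gene lists that changed sign with 1 array left out were those of heat shock (0.03 without pistil replicate 2), cell cycle (0.01 without pistil replicate 3), MADS, HOX and YABBY factors (-0.03 without ovary 5 min replicate 2, -0.01 without pistil replicate 2), kinesins and tubulins (-0.03 without ovary 5 min replicate 2, pistil replicate 1 or pistil replicate 3) and tapetum and anther wall markers (0.02 without ovary 5 min replicate 3). The actin cytoskeleton and ROP and the redox enzyme medians, which round to 0 with all arrays, also fell on both sides of 0. They ran from -0.03 to 0.04 for actin cytoskeleton and ROP and from -0.03 to 0.01 for redox enzymes. Of the single-gene and set values, 1106 kept their side of the threshold, 5 gained a call (OsTPP1, BC1L9 and CDPK1 without pistil replicate 2, Cht6 and PSK4 without ovary replicate 2) and 1 moved. Other scalings shifted the median of all probe sets to between -0.03 and -0.01, small beside the differences named. Differences of low genes are understated by the floor, and 3 arrays a group limit what can be called.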
